A study of Homo sapiens and Mus musculus with 16 samples.

Results

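The CHD genes encode chromodomain helicase DNA-binding proteins, and their transcripts were followed here between P-bodies and cytoplasm. P-bodies are cytoplasmic condensates of RNA and protein. The family was taken by symbol, as CHD1 to CHD9, and all 9 members were found among the 22286 genes of the human count table and, ignoring case, among the 15881 genes of the mouse table. The family was selected on earlier P-body to cytoplasm ratios of these same libraries, among them that of CHD7 in neurons and liver bud progenitors. The ratios and levels below are therefore a description of the members.

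The study sorted GFP-tagged LSM14A particles by flow cytometry and sequenced their RNA beside RNA of the cytoplasmic fraction from which they were sorted, with 2 P-body and 2 cytoplasm libraries for each of 4 cell types. The cells were HEK293T, an embryonic kidney line of human origin, liver bud progenitors and neurons at day 20, both differentiated from UCLA4 human embryonic stem cells, and KH2 mouse embryonic stem cells (mESC) kept in serum with LIF. All lines carried the LSM14A-GFP fusion, delivered per the study's methods by a lentivirus with an EF1a promoter in HEK293T and mESC and placed at the AAVS1 locus in UCLA4, so no group lacked the tag and each cell type stood for a single line. HEK293T and mESC libraries were labelled total RNA and made with the Snap seq protocol, which uses random primers, whereas liver bud progenitor and neuron libraries were labelled polyA RNA and made with a V4 Ultra kit and Nextera XT. The molecule label and the cell type cannot be told apart when HEK293T or mESC is set against the other cells. The study describes the 2 libraries of a group as biologically independent, while the labels name no separate cultures, so SEs and calls rest on the spread between these libraries.

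Library totals ranged from 6368953 to 17972284 counts, and the floor of 3 counts lay at 0.167 to 0.471 CPM, that is, on counts brought to a common library total. In neurons, 9 of 9 neuronal markers exceeded 5 CPM, with a summed level of 11706 to 12293 CPM in the cytoplasm and 9408 to 9421 CPM in P-bodies, and 6 of 6 neural progenitor markers did so, with 569 to 578 and 944 to 1047 CPM. In liver bud progenitors, 7 of 10 liver bud markers exceeded 5 CPM, with summed levels of 473 to 485 CPM in the cytoplasm and 215 to 228 CPM in P-bodies, and ALB was at 0 in the cytoplasm. There 7 of 9 neuronal markers also exceeded 5 CPM, with 256 to 257 CPM in the cytoplasm and 275 CPM in P-bodies. Neural progenitor markers summed to 258 CPM in liver bud cytoplasm and 221 to 227 CPM in liver bud P-bodies. Liver bud markers summed to 3.09 to 3.75 CPM in neuron cytoplasm and 7.08 to 10.9 CPM in neuron P-bodies. Mesenchyme markers summed to 209 to 214 CPM in liver bud cytoplasm and 75.6 to 77.0 CPM in liver bud P-bodies, and to 98.6 to 109 and 53.4 to 56.5 CPM in neurons. The 5 pluripotency markers summed to between 1164 and 1292 CPM in liver bud progenitor libraries and to between 35.8 and 82.0 CPM in neuron libraries. These sums do not tell whether other cell types were present or the named cells expressed these markers. Any part of other cell types in the differences below was not tested. In mESC, 8 of 8 pluripotency markers exceeded 5 CPM.

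CHD proteins carry a pair of chromodomains, which bind histone tails, followed by a helicase-like ATPase of the Snf2 type that moves or assembles nucleosomes. Subfamily I (CHD1 and CHD2) is known for work at transcribed genes, subfamily II (CHD3, CHD4 and CHD5) supplies the ATPase of the NuRD deacetylase complex, and subfamily III (CHD6, CHD7, CHD8 and CHD9) carries further domains. CHD7 is the gene mutated in CHARGE syndrome and acts at enhancers in neural and neural crest cells, and CHD8 is a high-confidence autism gene. CHD5 is expressed mainly in neurons and testis.

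The ATPase motif common to the family shows how far members differ in base composition around a shared site. The stretches below cover 18 codons around the DEAH box of the human genes, from the hg38 genome with GENCODE transcripts, and are shown, for each member but CHD7, because base composition is compared with the ratios below. Each is written 5′ to 3′ on the coding strand, with the 4 codons of the DEAH box in capitals, and they are ordered by the GC content of the whole transcript.
CHD1 (chr5:98893532-98893585, minus strand, exon 14): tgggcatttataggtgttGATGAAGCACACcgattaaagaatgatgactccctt
CHD9 (chr16:53242933-53242986, plus strand, exon 13): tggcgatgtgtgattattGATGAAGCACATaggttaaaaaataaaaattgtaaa
CHD2 (chr15:92956480-92956533, plus strand, exon 16): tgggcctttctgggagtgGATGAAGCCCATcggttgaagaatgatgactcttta
CHD6 (chr20:41488458-41488511, minus strand, exon 13): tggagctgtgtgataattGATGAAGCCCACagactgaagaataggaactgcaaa
CHD8 (chr14:21406886-21406939, minus strand, exon 14): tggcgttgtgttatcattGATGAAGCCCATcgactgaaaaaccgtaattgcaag
CHD4 (chr12:6593091-6593144, minus strand, exon 17): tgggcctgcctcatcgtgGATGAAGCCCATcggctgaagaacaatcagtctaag
CHD3 (chr17:7899980-7900033, plus strand, exon 16): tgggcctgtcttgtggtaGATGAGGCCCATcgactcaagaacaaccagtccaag
CHD5 (chr1:6136728-6136781, minus strand, exon 16): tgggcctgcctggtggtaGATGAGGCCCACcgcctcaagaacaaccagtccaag

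The third position of the codon was G or C in 3 of 18 codons of this stretch in CHD9 and in 5 of 18 in CHD1. It was G or C in 12 of 18 in CHD3, 13 of 18 in CHD4 and 16 of 18 in CHD5. The whole transcripts followed a similar order, with a GC content of 38.0% in CHD1 and 38.4% in CHD9 against 51.8% in CHD4, 56.3% in CHD3 and 60.5% in CHD5. CHD2, CHD6, CHD7 and CHD8 lay between, at 46.8%, 47.1%, 47.7% and 49.3%. All these transcripts were long, from 6673 bases in CHD4 to 13110 bases in CHD9, measured on the longest annotated transcript.

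Levels are given as normalised CPM, which are CPM after TMM scaling within the 4 libraries of a cell type. A log2 ratio compares P-body with cytoplasm and is given with its standard error (SE) over 4 libraries. Members are called higher or lower where the adjusted p of edgeR's quasi-likelihood test was under 0.05. Libraries of the fractions are also said to overlap or not, and the share of all genes without overlap was not computed. In HEK293T, 6 of 9 members were called higher and 2 lower in P-bodies, beside 19.3% and 22.8% of all genes tested. In liver bud progenitors 3 members were called higher and 3 lower, beside 21.4% and 17.1% of all genes. In neurons 6 were called higher and 2 lower, beside 14.6% and 14.1%, and in mESC 6 were called higher and 2 lower, beside 25.8% and 20.6%. The members had been selected on such ratios, so nothing is read from these shares. The median log2 ratio of the members was 0.50 in HEK293T and 0.24 in mESC, beside -0.01 and -0.11 over all genes tested. It was -0.12 in liver bud progenitors and 0.82 in neurons, beside -0.09 and 0.19 over all genes. Over genes of at least 20 CPM, a range that holds all members but CHD5 in each cell type, the median was 0.25 in HEK293T and 0.28 in mESC, and 0.33 in liver bud progenitors and -0.16 in neurons. The median over all 9 members lay below that of genes of at least 20 CPM in liver bud progenitors and mESC. CHD5 is outside that range. Leaving it out gave -0.11 for liver bud progenitors, still below. For mESC it gave 0.284 beside 0.283 over genes of at least 20 CPM, so the member median was then not below. The median without CHD5 was 0.62 for HEK293T and 0.85 for neurons.

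**Figure D1:**
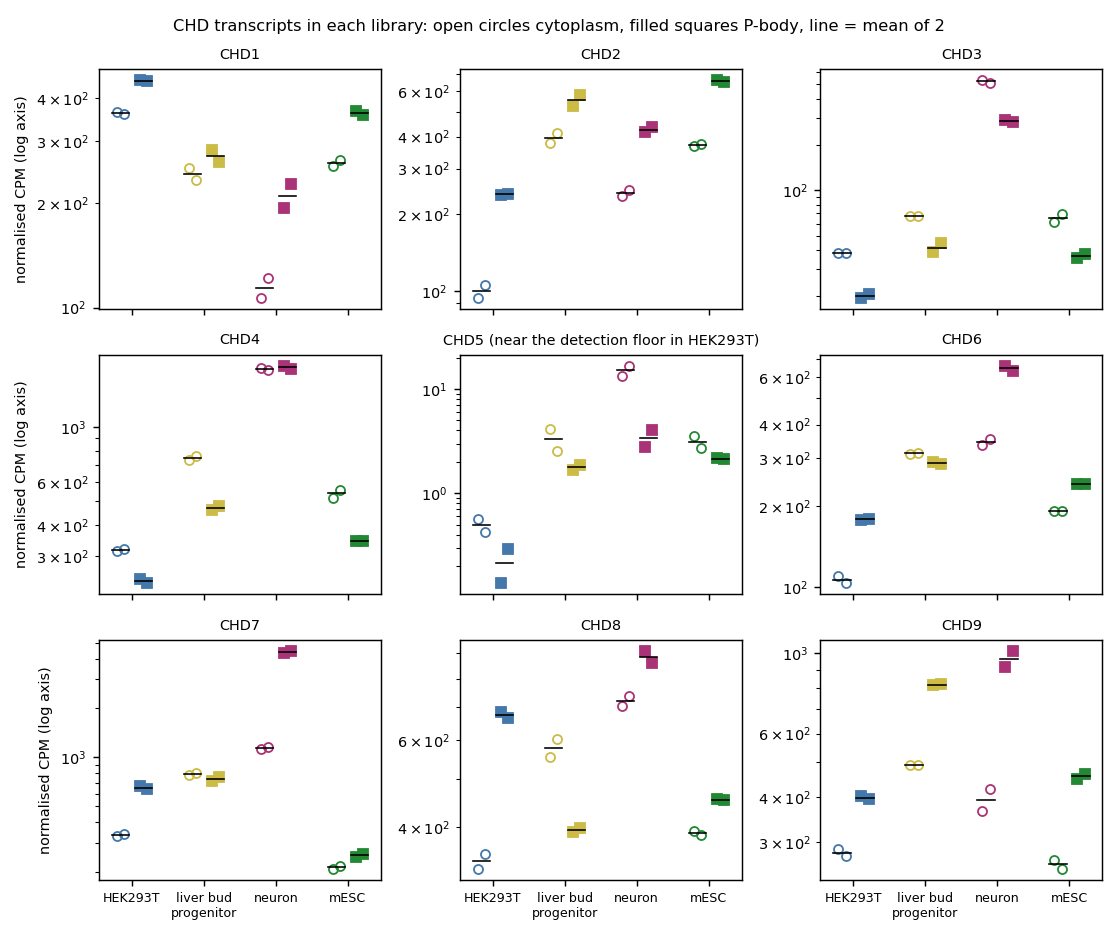
Normalised CPM on a log axis for each CHD member, with 2 cytoplasm libraries (open circles), 2 P-body libraries (filled squares) and their means (lines) in each cell type. CHD7 in neuron P-bodies reached 4361 and 4451, above each other library in its panel, and CHD3 lay lower in P-bodies than in cytoplasm in all 4 cell types.

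CHD1 and CHD2, the subfamily I remodelers, were higher in P-bodies in all 4 cell types under TMM scaling, with CHD1 in liver bud progenitors the smallest ratio. CHD1 measured 449 and 447 normalised CPM in HEK293T P-bodies against 364 and 360.2 in cytoplasm. In neurons it measured 193 and 226 against 107 and 122, and in mESC 367 and 357 against 255 and 265. The P-body and cytoplasm libraries of these cells did not overlap. In liver bud progenitors the values lay closer, at 284 and 262 in P-bodies against 251 and 232 in cytoplasm. For CHD1 the log2 ratio came to 0.31 ± 0.05 in HEK293T and 0.48 ± 0.04 in mESC, and to 0.88 ± 0.11 in neurons and 0.18 ± 0.06 in liver bud progenitors (SE). The liver bud value depended on the processing. Its call was lost under DESeq2 and RLE factors (0.16 in both), filterByExpr (0.09), without ribosomal RNA genes (0.15), with all human libraries in a single fit (0.15) and without P-body library 1 (0.12) or cytoplasm library 2 (0.08), and its sign turned with scaling by library size only (-0.0096).

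CHD2, whose loss causes a childhood epilepsy, had its largest ratio in HEK293T. There it measured 237 and 240.1 normalised CPM in P-bodies against 94.2 and 105 in cytoplasm. In liver bud progenitors it measured 525 and 584 against 377 and 413, in neurons 415 and 436 against 235.5 and 247, and in mESC 664 and 652 against 368 and 376. P-body libraries stood above cytoplasm libraries in each cell type. The log2 ratios were 1.26 ± 0.07, 0.49 ± 0.06, 0.82 ± 0.08 and 0.82 ± 0.04 (SE) in the same order.

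CHD3, a NuRD ATPase, was lower in P-bodies in every cell type. It measured 19.4 and 20.5 normalised CPM in HEK293T P-bodies against 38.2 in both cytoplasm libraries, and 38.8 and 44.4 against 67.3 in both in liver bud progenitors. In neurons it measured 292.6 and 282 against 533 and 513, and in mESC 35.8 and 37.6 against 61.5 and 69.1. The fractions did not overlap in any cell type. Its log2 ratio was -0.94 ± 0.12 in HEK293T and -0.83 ± 0.09 in mESC, and -0.86 ± 0.08 in neurons and -0.69 ± 0.10 in liver bud progenitors (SE).

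CHD4, the principal NuRD ATPase of dividing cells, was lower in P-bodies of HEK293T, liver bud progenitors and mESC and overlapped between the fractions in neurons. In HEK293T it measured 243 and 233 normalised CPM in P-bodies against 315 and 321 in cytoplasm, a log2 ratio of -0.42 ± 0.06 (SE). Liver bud progenitors had 461 and 478 against 735 and 761, a log2 ratio of -0.67 ± 0.05, and mESC had 345 in both P-body libraries against 518 and 558, a log2 ratio of -0.64 ± 0.04. In neurons the P-body values of 1768 and 1713 overlapped the cytoplasm values of 1737 and 1706, with a log2 ratio of 0.02 ± 0.07, and the sign of this ratio turned under 3 alternatives.

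CHD5, the neuronal NuRD ATPase, was scarce outside neurons. HEK293T libraries held 2 and 5 counts in P-bodies and 7 and 5 in cytoplasm, near the floor, and no fold is given. In neurons CHD5 measured 2.76 and 4.05 normalised CPM in P-bodies against 13.4 and 16.7 in cytoplasm. That log2 ratio of -2.13 ± 0.36 (SE) was the lowest of the family among called members. Liver bud progenitors had 1.68 and 1.86 against 4.10 and 2.53, and mESC had 2.16 and 2.11 against 3.51 and 2.69. In both of these cell types the P-body libraries lay below the cytoplasm libraries, and the log2 ratios of -0.88 ± 0.44 and -0.53 ± 0.35 did not pass the threshold.

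**Figure D2:**
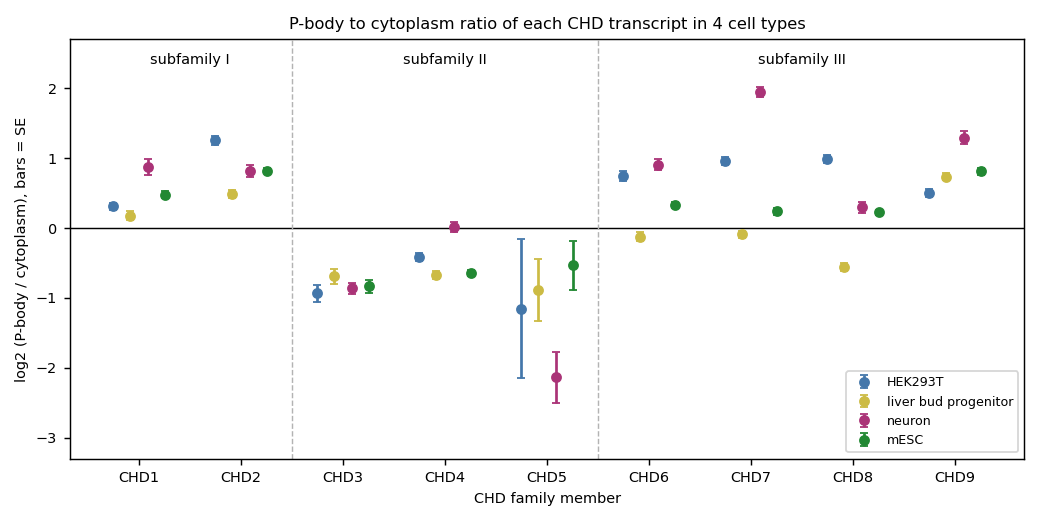
Log2 ratio of P-body to cytoplasm for each CHD member and cell type (points), with SE over 4 libraries (bars) and subfamilies divided by dashed lines. CHD3 lay below 0 in all cell types, CHD7 ran from -0.09 in liver bud progenitors to 1.95 in neurons, and the mESC points of CHD6, CHD7 and CHD8 lay above 0 with the TMM scaling drawn here but below it with library size only.

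Within subfamily III, CHD7 had the widest range across cell types. In neurons it measured 4361 and 4451 normalised CPM in P-bodies against 1128 and 1157 in cytoplasm, a log2 ratio of 1.95 ± 0.07 (SE). In liver bud progenitors, made from the same human line, it measured 713 and 763 in P-bodies against 776 and 796 in cytoplasm, a log2 ratio of -0.09 ± 0.05 that did not pass the threshold. The neuron fractions stood well apart, whereas the liver bud fractions were separated by less than the spread of the P-body pair. HEK293T had 664 and 639.7 against 330.4 and 339, a log2 ratio of 0.96 ± 0.05. In mESC it measured 245 and 256 against 208 and 217, and the log2 ratio of 0.24 ± 0.05 turned to -0.16 with scaling by library size only.

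CHD8, which binds β-catenin and restrains Wnt target genes, was higher in HEK293T P-bodies, at 684 and 667 normalised CPM against 329 and 353 in cytoplasm (log2 ratio 0.99 ± 0.05, SE). It was lower in P-bodies of liver bud progenitors, at 390.2 and 397 against 553 and 602 (-0.55 ± 0.06). In neurons it measured 909 and 861 against 705 and 738 (0.29 ± 0.08), a call that was lost without either cytoplasm library, at 0.25 and 0.31. In mESC it measured 455 and 453 against 392 and 385 (0.22 ± 0.04), and this value turned to -0.18 with library size only. CHD8 was called higher in HEK293T and neurons and lower in liver bud progenitors. CHD6 and CHD7 were also called lower in liver bud progenitors with filterByExpr (-0.21 and -0.18) and with library size only (-0.31 and -0.28), and CHD6 without liver bud cytoplasm library 2 (-0.16).

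CHD6, a large relative of CHD7 linked to oxidative stress responses, measured 178 in both HEK293T P-body libraries against 109.7 and 103 normalised CPM in cytoplasm. In neurons it measured 661 and 635 against 337 and 354, and in liver bud progenitors 289.7 and 285 against 312 and 314. The log2 ratios were 0.74 ± 0.07, 0.91 ± 0.08 and -0.12 ± 0.06 (SE), of which the last did not pass the threshold. In mESC it measured 241 and 240.4 against 191 and 192, and the log2 ratio of 0.33 ± 0.05 turned to -0.07 with library size only.

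CHD9, the member with the longest transcript, was higher in P-bodies in all 4 cell types. It measured 403 and 394 normalised CPM in HEK293T P-bodies against 287 and 276 in cytoplasm, and 815 and 825 against 492 in both cytoplasm libraries of liver bud progenitors. In neurons it measured 915 and 1014 against 367 and 421, and in mESC 450.2 and 465 against 268 and 254. The fractions did not overlap in any cell type, and the log2 ratios were 0.50 ± 0.06, 0.74 ± 0.05, 1.29 ± 0.09 and 0.81 ± 0.04 (SE) in that order. CHD9 had the highest ratio of the family in liver bud progenitors, CHD7 in neurons and CHD2 in HEK293T. In mESC Chd2 and Chd9 differed by less than their SE, and their order turned without P-body library 1 or cytoplasm library 1.

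Liver bud progenitors and neurons share a line and a molecule label, so their ratios could be set side by side in a single model over 8 libraries. The neuron minus liver bud difference in log2 ratio was called higher for 6 members and lower for 0, beside 9.21% and 8.5% of all genes. Because CHD7's contrast was known when the family was selected, these values are a description. The difference was 2.03 ± 0.08 (SE) for CHD7, 1.02 ± 0.10 for CHD6, 0.84 ± 0.10 for CHD8, 0.69 ± 0.13 for CHD1, 0.68 ± 0.08 for CHD4 and 0.55 ± 0.10 for CHD9. It was 0.32 ± 0.11 for CHD2, -0.18 ± 0.12 for CHD3 and -1.26 ± 0.56 for CHD5, none of which passed the threshold. The median over the 9 members was 0.68, beside 0.23 over all genes tested. Over genes of at least 20 CPM, a range without CHD5, it was -0.05. The all-gene median of 0.23 fell to 0.03 and 0.002 without neuron P-body library 1 or 2. Summed over the family, neurons held 9519 to 9623 normalised CPM in P-bodies against 5163 to 5273 in cytoplasm, while liver bud progenitors held 3519 to 3640 against 3569 to 3680. CHD7 made up 4361 to 4451 of the neuron P-body sum and 1128 to 1157 of the neuron cytoplasm sum. CHD3 and CHD5 were lower in neuron P-bodies and CHD4 overlapped, and these sums are not scaled by transcript length.

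Neuron cytoplasm was also set beside liver bud progenitor cytoplasm. Levels in each cell type were part of how the family was selected, and these libraries are the denominators of the ratios, so this too is a description. In bulk samples fewer cells of a type and less RNA per cell cannot be told apart. By edgeR's quasi-likelihood test, 6 of 9 members were called higher in neurons and 2 lower, beside 26% and 25.8% of all genes, and nothing is read from these shares. Values in this comparison are normalised CPM scaled over the 4 cytoplasm libraries. The NuRD ATPases differed most. CHD3 measured 576 and 554 in neurons against 62.8 and 62.9 in liver bud progenitors, a log2 difference of 3.17 ± 0.09 (SE). CHD4 measured 1875 and 1841 against 685 and 711, a log2 difference of 1.41 ± 0.07. CHD5 measured 14.5 and 18.0 against 3.82 and 2.37, a log2 difference of 2.40 ± 0.27. All 3 subfamily II members were higher in both neuron libraries than in both liver bud libraries. The share of all genes separated in this way was not computed.

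Among the other members, CHD7 was higher in neurons by 0.75 ± 0.07 on the log2 scale (1217 and 1248 normalised CPM against 723 and 744) and CHD8 by 0.53 ± 0.07 (761 and 797 against 516 and 563). CHD6 was higher by 0.35 ± 0.08 (364 and 382 against 291 and 294), but its sign turned to -0.03 with library size only. CHD1 had a log2 difference of -0.87 ± 0.09 (115 and 131 against 234 and 217) and CHD2 of -0.50 ± 0.08 (254 and 266 against 351 and 386). CHD1 and CHD2 were thus lower in neuron cytoplasm while CHD3, CHD4 and CHD5 were higher. With 26% of all genes called higher and 25.8% lower, nothing is read from this about the subfamilies. CHD9 had a log2 difference of -0.11 ± 0.08 that missed the threshold (396 and 454 against 459 and 459.8). CHD3 had the larger cytoplasm difference and a ratio that differed by -0.18 between the cell types, whereas CHD7 had a cytoplasm difference under 1 on the log2 scale and a ratio that differed by 2.03.

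Members can be ranked against each other only per length, so CPM were divided by the length of the longest transcript in kilobases. In cytoplasm CHD4 was the most abundant member per kilobase in all 4 cell types, with 23.0% ± 0.0068 of the family total in HEK293T and 29.7% ± 0.951 in mESC, and 41.9% ± 0.918 in neurons and 28.4% ± 0.0302 in liver bud progenitors (SD, n = 2). In P-bodies the leading member differed by cell type. It was CHD8 in HEK293T, at 26.6% ± 0.113, and CHD4 in liver bud progenitors, at 19.1% ± 0.0411. It was CHD7 in neurons, at 38.4% ± 0.447 against 16.0% ± 0.139 in neuron cytoplasm, and Chd2 in mESC, at 23.1% ± 0.28. CHD5 came last everywhere, with at most 0.248% in neuron cytoplasm. Neighbours in these orders could lie within their spread, as CHD8 and CHD7 did in liver bud cytoplasm, at 17.3% ± 0.637 and 17.1% ± 0.0832. The transcript isoform used by each cell type was not measured, and the shares assume the longest.

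**Figure D3:**
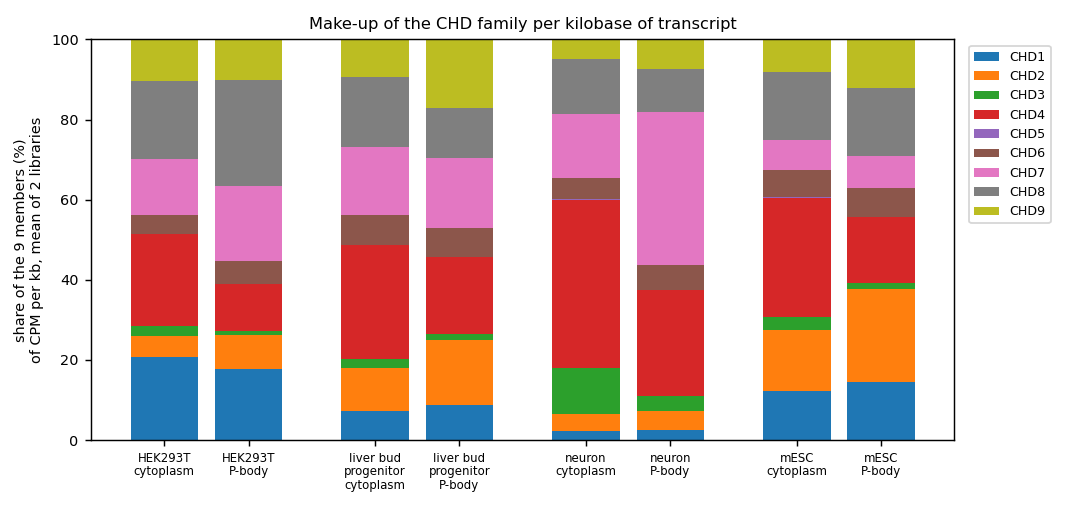
Share of each CHD member in the family total of CPM per kilobase of longest transcript, as the mean of 2 libraries per bar, for cytoplasm and P-body of each cell type. CHD4 went from 41.9% in neuron cytoplasm to 26.4% in neuron P-bodies while CHD7 went from 16.0% to 38.4%, and CHD5 is too scarce to be seen.

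Base composition was set beside the ratios as a description. Across the 9 members, Spearman's rho between transcript GC content and log2 ratio was -0.52 in HEK293T and -0.93 in liver bud progenitors, and it was -0.75 in neurons and -0.87 in mESC. These points share their libraries, and the 9 genes are related in sequence. Over all genes of at least 20 CPM, rho was -0.53, -0.74, -0.70 and -0.74 in that order, of the same sign as over the members. With the coding sequence alone, the members gave -0.57, -0.93, -0.73 and -0.78. Without CHD5, which lay near the floor in HEK293T, GC content gave -0.31, -0.90, -0.64 and -0.88 over 8 members. This alternative was added after the values were seen. Transcript length gave 0.33, 0.48, 0.67 and 0.57 over the 9 members, beside 0.25, -0.13, 0.16 and 0.13 over all genes of at least 20 CPM. Without CHD5, transcript length gave 0.55, 0.71, 0.88 and 0.64 over 8 members, farther from 0 than GC content in HEK293T and neurons. The GC-poor CHD9 and CHD1 lay above 0 in every cell type and the GC-rich CHD3 below it, with CHD1 in liver bud progenitors below 0 when scaled by library size only. CHD6 and CHD7, whose GC contents differed by less than a percentage point, had neuron ratios of 0.91 and 1.95. The mouse transcripts of Chd7 and Chd9 had a GC content of 51.4% and 45.1%, above the 47.7% and 38.4% of the human ones.

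**Figure D4:**
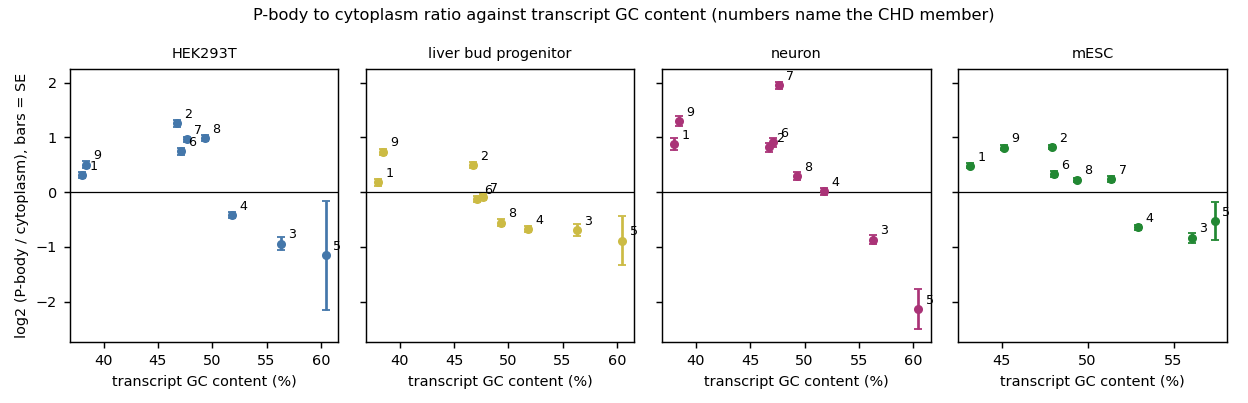
Log2 ratio of P-body to cytoplasm (points, with SE bars) against GC content of the longest transcript for the 9 members in each cell type. The GC-rich member 3 lies below 0 in each panel, member 5 in HEK293T is near the detection floor and its point there carries no direction, and in neurons member 7 lies at 1.95, far above member 6 at a similar GC content.

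The partners of these proteins were followed as lists. Of 12 NuRD partners of CHD3, CHD4 and CHD5, 5 were called higher and 5 lower in HEK293T P-bodies, 5 and 3 in liver bud progenitors, 2 and 4 in neurons, and 7 and 5 in mESC. The background of calls over all genes is that given above for the members, 19.3% and 22.8%, 21.4% and 17.1%, 14.6% and 14.1%, and 25.8% and 20.6% in the same order. Median log2 ratios were 0.13, -0.02, -0.18 and 0.26, beside -0.01, -0.09, 0.19 and -0.11 over all genes. Over genes of at least 20 CPM, a range that leaves out some list genes, the medians were 0.25, 0.33, -0.16 and 0.28. The NuRD medians lay below these in each cell type, though by little in neurons and mESC. MTA1, a scaffold subunit of NuRD, was lower in P-bodies in every cell type, at -1.04 ± 0.09, -0.80 ± 0.10, -1.13 ± 0.13 and -0.61 ± 0.07 (SE). MTA3, its paralog, was higher in HEK293T at 1.14 ± 0.08, in liver bud progenitors at 0.69 ± 0.07 and in mESC at 0.36 ± 0.07, and its neuron value of 0.40 ± 0.15 did not pass the threshold. GATAD2B, which links the deacetylase and remodeler modules of NuRD, was higher in HEK293T, neurons and mESC, at 0.79 ± 0.06, 0.80 ± 0.08 and 1.24 ± 0.04.

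Of 22 other Snf2-type ATPases, 12 were called higher and 9 lower in HEK293T P-bodies, 11 and 7 in liver bud progenitors, 13 and 4 in neurons and 13 and 4 in mESC. The background over all genes, here and for the chromodomain list below, was 19.3% and 22.8%, 21.4% and 17.1%, 14.6% and 14.1%, and 25.8% and 20.6%. The ATPases' median log2 ratios were 0.44, 0.18, 0.74 and 0.40, beside -0.01, -0.09, 0.19 and -0.11 over all genes. Over genes of at least 20 CPM the medians were 0.25, 0.33, -0.16 and 0.28, which serve the chromodomain list below too. The ATPases' median lay below that range's median in liver bud progenitors and above it in the other cell types. ERCC6L, a mitotic helicase, was higher in all 4, at 1.42 ± 0.06, 1.38 ± 0.07, 3.09 ± 0.14 and 1.15 ± 0.06 (SE). SRCAP, which deposits the histone variant H2A.Z, was lower in all 4, at -1.60 ± 0.06, -1.69 ± 0.07, -1.27 ± 0.08 and -1.03 ± 0.04. Of 18 other chromodomain proteins, 10 were called higher and 2 lower in HEK293T, 9 and 1 in liver bud progenitors, 5 and 3 in neurons and 12 and 0 in mESC, with medians of 0.36, 0.44, 0.06 and 0.57. ARID4A, a subunit of the SIN3 deacetylase complex, reached 2.52 ± 0.09 in neurons. In the difference between neurons and liver bud progenitors, 9.21% of all genes were called higher and 8.5% lower. The median was 0.23 over all genes and -0.05 over genes of at least 20 CPM. There 9 other Snf2-type ATPases were called higher and 0 lower, with a median of 0.43. For NuRD partners the counts were 1 and 3 (median -0.21), and for chromodomain proteins 4 and 4 (median -0.29). In the comparison of cytoplasm, where 26% of all genes were called higher in neurons and 25.8% lower, 7 NuRD partners rose and 2 fell, 6 other Snf2-type ATPases rose and 13 fell, and 11 chromodomain proteins rose and 4 fell. Their medians were 0.33, -0.52 and 0.36, beside -0.16 over all genes and 0.17 over genes of at least 20 CPM. SMARCA4, the ATPase of BAF complexes, rose by 1.31 ± 0.07 on the log2 scale (edgeR adjusted p = 1.52e-27).

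**Figure D5:**
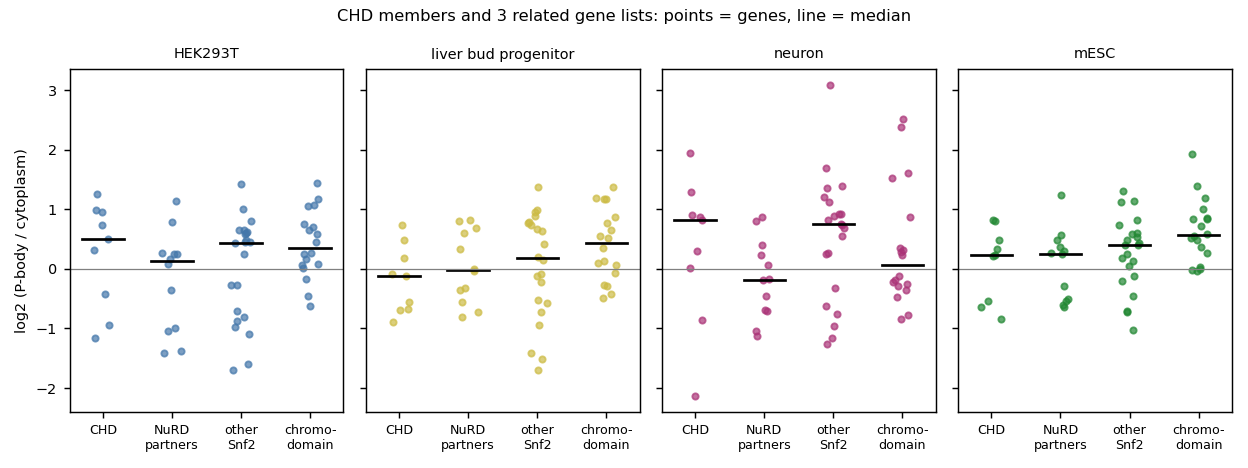
Log2 ratio of P-body to cytoplasm in each cell type for the 9 CHD members and for lists of 12 NuRD partners, 22 other Snf2-type ATPases and 18 other chromodomain proteins (points are genes, lines are medians, horizontal position within a list is arbitrary). Each list spread to both sides of 0 in the human cells, and the CHD median was 0.82 in neurons and -0.12 in liver bud progenitors.

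Genes with a profile like that of a member were sought by Pearson's r of log2(CPM + 1) over the 12 human libraries, which come in 3 cell types and 2 fractions, among 6921 genes of at least 20 CPM. The closest to CHD7 were TAF1, a subunit of the TFIID factor (r = 0.988), BICRAL, a BAF complex subunit (r = 0.984), and SALL1, a zinc finger repressor (r = 0.983). In neurons their log2 P-body ratios were 1.17 ± 0.08, 0.50 ± 0.13 and 0.99 ± 0.08 (SE), each below that of CHD7. The closest member was CHD6 (r = 0.936). For CHD3 the closest were EFR3B (r = 0.998), NKAIN1 (r = 0.996) and TSPYL4 (r = 0.996), with neuron log2 ratios of -1.09 ± 0.10, -1.06 ± 0.09 and -0.98 ± 0.11. Within the family CHD3 was closest to CHD4 (r = 0.965) and opposite to CHD1 (r = -0.886).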

How the data were processed

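Whole-number counts of reads for each gene symbol were deposited by the authors as 1 table for human (hg38) and 1 table for mouse (mm10), in which the smallest gene total was 10. Per the study's methods, total RNA (snapTotal-seq) reads were quantified with salmon. Smart-seq (V4 Ultra) reads were mapped with HISAT2 and counted with featureCounts, and both ways used refGene. The 2 kinds of human library share 1 table whose header names neither way, so the way used for each column is not known. If they differed, reads of similar copies could be treated differently in the 2 kinds of library. The authors' tables of fold changes and p-values from DESeq2 were not used. Groups came from the labels. Counts were fitted over all genes with edgeR 4.0.16 in R 4.3.3 (quasi-likelihood test, two-sided, TMM, no covariate, Benjamini-Hochberg over all genes tested, call at adjusted p under 0.05), leaving out genes at 0 in every library compared. SE is the log2 value divided by the root of F. Alternatives were DESeq2 1.42.0, RLE factors, library size only, filterByExpr, no ribosomal RNA genes, all 12 human libraries together, a replicate block and leaving out each library. For base composition they were the coding sequence alone and, added later, leaving out CHD5. CHD5 was also left out for transcript length and for the members' median ratio. The scripts were tested on simulated counts. The members, lists and tests were chosen with earlier results of these data known. Besides all members, up to 3 called genes per direction were eligible for naming in each list (largest log2 value, at least 20 CPM), and 3 nearest profiles for CHD7 and CHD3. Sequences and transcript features came from GENCODE 44 on hg38 and M21 on mm10. Floors cover counting error only. Sequences of CHD proteins were not used here.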

Additional observations from a re-analysis of the deposited data

Results flagged for a closer look

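The P-body to cytoplasm ratio differed between neurons and liver bud progenitors for 6 members in the interaction term over 8 libraries. All 6 were called higher, beside 9.21% of all genes called higher and 8.5% called lower. The neuron minus liver bud difference in log2 ratio was 2.03 for CHD7, 1.02 for CHD6, 0.84 for CHD8, 0.69 for CHD1, 0.68 for CHD4 and 0.55 for CHD9, and the family was selected with such ratios known.

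For CHD6, CHD7 and CHD8 both P-body libraries stood above both cytoplasm libraries in HEK293T and mESC and below them in liver bud progenitors. The share of all genes separated in this way was not computed. In liver bud progenitors CHD8 was called lower, whereas the ratios of CHD6 and CHD7 did not pass the threshold. The liver bud fractions of CHD7 lay closer together than its 2 P-body libraries did. The HEK293T minus liver bud difference in log2 ratio was 0.87 for CHD6, 1.05 for CHD7 and 1.54 for CHD8. The liver bud minus mESC difference was -0.46 for CHD6, -0.33 for CHD7 and -0.78 for CHD8. These differences were not tested, and the molecule label changes with the cell type in each. With scaling by library size only, the 3 mESC ratios lay below 0, so the liver bud and mESC directions were then alike.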

How the results depend on the processing

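Over the 6 comparisons and their alternatives, 584 values of single members kept direction and side of the threshold, 16 gained a call, 11 lost one and 9 changed sign. Scaling by library size only had the largest effect. The median log2 value of all genes then went in liver bud progenitors from -0.09 to -0.28, in mESC from -0.11 to -0.51 and from 0.23 to 0.58 in the difference between neurons and liver bud progenitors. Under it the members called lower in liver bud progenitors went from 3 to 6, and in mESC those called higher went from 6 to 2 and those called lower from 2 to 5. Over all genes tested under this scaling, calls of lower in liver bud progenitors went from 3747 to 4850 of 21951. In mESC, this scaling took calls of higher from 4104 to 2591 and of lower from 3271 to 6609, of 15881 genes. Signs also turned under it, for CHD1 in liver bud progenitors (-0.0096), for CHD6, CHD7 and CHD8 in mESC (-0.071, -0.16 and -0.18), for CHD3 in the difference between neurons and liver bud progenitors (0.18) and for CHD6 in the cytoplasm (-0.0339). CHD8 in the cytoplasm lost its call (0.15) and CHD9 gained one (-0.49). With filterByExpr, 5 members were called lower in liver bud progenitors, beside 4143 of 14413 genes tested, and CHD5 had no value where it was filtered out. CHD4 in neurons turned to -0.10 with all human libraries in a single fit and to -0.0066 and -0.0107 without P-body library 1 or cytoplasm library 2, within a range of -0.0107 to 0.0382 over the libraries left out. Leaving out each library gave between 0 and 1 members called lower in the difference between neurons and liver bud progenitors, the 1 being CHD5 (-1.69) without neuron P-body library 2. Without neuron P-body library 1 or 2, the median of that difference over all genes went from 0.23 to 0.03 and 0.002. The members' median went from 0.68 to 0.56 and 0.45. The cause of these changes was not tested.

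The replicate numbers are not said to pair libraries. Deviations of same-numbered libraries correlated at -0.09 in HEK293T and 0.06 in liver bud progenitors, and at 0.13 in neurons and -0.04 in mESC. With the replicate number as a block, CHD2 gained a call in the difference between neurons and liver bud progenitors (0.32), and no other member's call changed. That made 7 members called higher, beside 2367 of 22268 genes tested. CHD2 gained that call also under DESeq2 and RLE factors (0.36 in both), library size only (0.68), filterByExpr (0.47) and without liver bud P-body library 2 (0.41). Within groups, the 2 neuron P-body libraries differed most, with a chi-square of counts per gene of 24.8 beside 2.15 to 6.69 elsewhere. CHD5 lay near the floor in HEK293T, with 2 to 7 counts per library.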
